A study of Homo sapiens with 4 samples.

Results

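The cell cycle genes described here are 44 genes that the DREAM complex is known to repress, out of 20037 protein-coding genes of GRCh38 in RefSeq. They are taken from a list of gene names, and all were found in the RefSeq gene table. A gene was said to have a peak in a library when a peak summit lay within 2 kb of either of its annotated ends. The remaining 19993 protein-coding genes served as the background.

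The peaks come from p53 ChIP-seq in H1299, an established non-small-cell lung carcinoma line with the genotype p53-/-, in which either wild-type p53 (p53WT, 2 libraries) or the mutant CASM34 (2 libraries) was expressed. The series title calls such changes cancer-associated synonymous mutations, meaning changes of the coding sequence that leave the encoded amino acid as it was. All 4 libraries were precipitated with the p53 antibody DO-1, and no treatment, time or vector is given in the labels used here. The labels number the libraries 1 and 2 within each group and do not say whether these were separate cultures, so the spread between them may be technical.

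DREAM is a repressor made of the MuvB core, a pocket protein of the retinoblastoma family and an E2F factor with its partner. It sits at E2F sites and at the cell cycle genes homology region (CHR) of promoters that are active in S phase or in G2 and mitosis. p53 is known to act on these genes mainly through a relay: it raises p21 (CDKN1A), p21 holds back cyclin-dependent kinases, and the unphosphorylated pocket proteins then join MuvB. In that textbook scheme p53 itself need not sit at the repressed promoters, and ChIP-seq asks where it was found.

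The members with a peak were few and fell unevenly over the libraries. No member had one in p53WT 1 (background 0.375% of other genes) or in CASM34 1 (0.56%). In p53WT 2 there were 10 of 44, or 22.7% (exact Clopper-Pearson 95% interval 11.5 to 37.8), where 10.2% of other genes had a peak. In CASM34 2 there were 2 of 44, or 4.55% (0.555 to 15.5), against 6.95% of other genes. These intervals cover counting error over genes within a single library. They do not test the list, which was chosen with earlier results of these data known. The members with a peak in p53WT 2 were CCNB2, CCNE2, CDC25A, CDC25C, MCM4, ECT2, MKI67, FOXM1, MYBL2 and E2F1. Those in CASM34 2 were CCNE2 and BIRC5. Over all libraries 11 members (25%) had a peak at least once, as did 14.3% of other genes.

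Where a peak met an annotated promoter, the bases in the peak can be shown. The RefSeq promoter table (GRCh38.p14) holds windows of 300 bases, from 250 before a start to 50 after it, for 37 of the 44 members. A peak at a member touched a window of that table in 3 cases, all in p53WT 2. The windows are those of MYBL2, ECT2 and NECAB3, which is not a member. They are shown because they are the stretches of promoter that the peaks cover. Capitals mark the bases inside the peak. MYBL2 is read at chr20:43666864-43667163 on the plus strand, with 91 bases in the peak. ECT2 is read at chr3:172750752-172751051 on the plus strand, the window of its inner start, with 200 bases in the peak. NECAB3, the gene beside E2F1, is read at chr20:33674379-33674678 on the minus strand, with 40 bases in the peak.
MYBL2: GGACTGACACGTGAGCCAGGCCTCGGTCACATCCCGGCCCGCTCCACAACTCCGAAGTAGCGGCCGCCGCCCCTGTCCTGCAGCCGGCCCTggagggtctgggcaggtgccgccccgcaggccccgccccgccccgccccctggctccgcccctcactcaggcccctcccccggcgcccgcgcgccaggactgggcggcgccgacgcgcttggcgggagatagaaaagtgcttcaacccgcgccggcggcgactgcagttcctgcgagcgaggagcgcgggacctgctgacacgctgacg
ECT2: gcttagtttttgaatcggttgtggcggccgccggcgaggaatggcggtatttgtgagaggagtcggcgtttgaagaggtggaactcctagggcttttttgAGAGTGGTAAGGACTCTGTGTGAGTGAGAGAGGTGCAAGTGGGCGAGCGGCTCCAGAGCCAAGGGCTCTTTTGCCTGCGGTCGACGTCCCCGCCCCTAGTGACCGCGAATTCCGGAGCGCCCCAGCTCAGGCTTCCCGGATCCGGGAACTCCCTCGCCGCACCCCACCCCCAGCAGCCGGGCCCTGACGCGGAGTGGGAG
NECAB3: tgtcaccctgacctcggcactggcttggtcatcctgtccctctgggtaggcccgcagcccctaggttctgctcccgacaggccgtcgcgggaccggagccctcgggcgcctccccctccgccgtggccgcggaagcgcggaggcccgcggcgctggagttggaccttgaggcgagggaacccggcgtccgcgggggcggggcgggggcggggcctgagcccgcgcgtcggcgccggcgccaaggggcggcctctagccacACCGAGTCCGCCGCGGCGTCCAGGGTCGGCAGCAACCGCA

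The elements through which DREAM is known to act can be seen in other promoters of members with a peak. In the next windows capitals mark matches to the CHR (TTTGAA or TTCGAA), to E2F sites (TTTCCCGC, TTTGGCGC, TTTGCCGC or TTTCGCGC) and to the CCAAT box, on either strand; the neighbouring CHR and CCAAT matches of MKI67 overlap. CCNB2 lies at chr15:59104896-59105195 on the plus strand, MKI67 at chr10:128126374-128126673 on the minus strand and CDC25A at chr3:48188368-48188667 on the minus strand. For CDC25C an inner start is shown, at chr5:138331755-138332054 on the minus strand, since the windows of its outer starts held none of these matches.
CCNB2: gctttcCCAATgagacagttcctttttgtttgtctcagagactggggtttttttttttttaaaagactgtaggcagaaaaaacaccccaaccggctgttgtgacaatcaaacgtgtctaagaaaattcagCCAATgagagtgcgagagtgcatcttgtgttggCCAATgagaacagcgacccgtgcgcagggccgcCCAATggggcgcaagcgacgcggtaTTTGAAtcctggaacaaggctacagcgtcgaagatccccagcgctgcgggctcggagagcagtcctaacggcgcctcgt
MKI67: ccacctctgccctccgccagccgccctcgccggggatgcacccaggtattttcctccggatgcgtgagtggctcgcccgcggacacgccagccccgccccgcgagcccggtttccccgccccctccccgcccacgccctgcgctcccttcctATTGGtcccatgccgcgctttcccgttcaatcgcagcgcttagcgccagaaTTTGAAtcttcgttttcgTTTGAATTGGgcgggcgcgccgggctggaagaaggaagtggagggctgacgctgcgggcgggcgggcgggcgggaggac
CDC25A: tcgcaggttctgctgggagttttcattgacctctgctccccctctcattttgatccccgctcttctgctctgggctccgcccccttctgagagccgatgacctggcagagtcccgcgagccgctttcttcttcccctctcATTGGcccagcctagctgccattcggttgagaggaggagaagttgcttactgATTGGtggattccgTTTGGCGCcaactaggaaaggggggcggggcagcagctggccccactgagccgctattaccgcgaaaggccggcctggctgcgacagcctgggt
CDC25C: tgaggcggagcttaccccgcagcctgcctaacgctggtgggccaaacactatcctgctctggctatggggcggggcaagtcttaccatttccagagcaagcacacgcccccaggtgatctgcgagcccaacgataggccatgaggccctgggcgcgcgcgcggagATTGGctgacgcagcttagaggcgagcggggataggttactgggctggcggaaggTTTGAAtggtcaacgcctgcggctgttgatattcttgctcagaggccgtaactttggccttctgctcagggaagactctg

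These elements stood in the promoter windows of many members. A CHR match stood in at least 1 window of 17 of 37 members (45.9%) and of 17.4% of 15806 other genes. E2F matches stood in 10 members (27%) and in 5.35% of other genes, and CCAAT in 32 (86.5%) and 42%. Counted over all 22199 windows of protein-coding genes, the shares were 13.7%, 4.1% and 34.7%. A p53 half-site was matched in 3 members (8.11%) and in 8.07% of other genes. Among the 7 members with a peak and a window, 4 had a CHR match, 2 an E2F match and 6 a CCAAT match. Among the 30 without a peak the counts were 13, 8 and 26. Only the windows of MYBL2 and ECT2 met the peak of their own gene. The bases they share with it held no CHR, E2F or CCAAT match. Those of ECT2 did hold matches to the p53 core pair, a loose pattern of 14 bases with most letters left free. That pattern was matched in 89.2% of members and in 85.2% of other genes, so a match says little about p53 binding. The windows of ECT2 held no p53 half-site match. The nearest CHR, E2F or CCAAT match was a CHR of ECT2, 27 bp from the edge of its peak. For the other members the window and the peak did not overlap, and the sequence under their peaks was not searched. These are matches of letters and do not show bound sites.

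The group of cyclins, CDK1, the CDC25 phosphatases and CDC20 had 4 of 8 genes called in p53WT 2 (background 10.2%) and 1 of 8 in CASM34 2 (background 6.95%). CCNE2 encodes cyclin E2, which drives CDK2 at the entry into S phase, and was the only member of the 44 with a peak in both libraries numbered 2. Its gene lies on chromosome 8 and its summits were at 94896026 in p53WT 2 and at 94896018 in CASM34 2, 8 bp apart. The summits were 667 and 675 bp inside the nearer end of CCNE2. They were also 227 and 219 bp from an end of NDUFAF6, a mitochondrial assembly factor gene, so the peak is nearer to that gene. The deposited −log10 q, the strength that the authors' caller gave the peak, was 2.97 in p53WT 2 and 2.55 in CASM34 2. In p53WT 1 the nearest summit was 1889.1 kb away and in CASM34 1 it was 53.1 kb away.

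CCNB2, CDC25A and CDC25C had peaks in p53WT 2 alone. CCNB2 encodes cyclin B2, a partner of CDK1 in mitosis (chromosome 15, 59105146 to 59125045). Its peak ran from 59105267 to 59105663, with the summit 227 bp inside the gene and a −log10 q of 2.02. The peak began 121 bp after the annotated start, and the CHR printed above ended 145 bp before the peak. The nearest CASM34 2 summit was 1398.2 kb away, and those of p53WT 1 and CASM34 1 were 1241.4 and 3917.7 kb away.

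CDC25A, a phosphatase of the G1 to S step, had its summit 644 bp inside the gene start on chromosome 3 (48187773), with a −log10 q of 1.38. Its E2F match lay 511 bp from the peak edge. In p53WT 1 the nearest summit was 23.5 kb from the gene, and in CASM34 1 and CASM34 2 it was 101 and 354 kb away. CDC25C, the phosphatase that acts on CDK1 at the entry into mitosis, had its summit at 138337904 on chromosome 5, with a −log10 q of 1.35. The gene has outer and inner annotated starts, and this summit was 437 bp from the nearest outer one and 6.10 kb from the inner one whose window is printed above. It was also 347 bp from an end of FAM53C, nearer than the 451 bp to the end of CDC25C. Both phosphatase peaks stood close to the lowest −log10 q in the list, 1.31.

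CCNA2, CCNB1, CDC20 and CDK1, which make up the rest of this group, had no peak. CDK1, the mitotic kinase itself, was 2010.0 kb from the nearest summit in p53WT 2 and 45.1 kb in CASM34 2. CCNB1, cyclin B1, was 73 and 733 kb away. CCNA2, cyclin A2, was far from summits in each library, at 1574.6 kb in p53WT 2 and 6238.2 kb in CASM34 2.

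All 3 transcription factors of the list had a peak in p53WT 2 and none in CASM34 2, a pattern that 7.15% of other genes showed. The peak counted for E2F1 was nearer to an end of NECAB3. These factors switch on other cell cycle genes: E2F1 at the G1 to S step, MYBL2 (B-Myb) and FOXM1 on the MuvB core in G2 and mitosis. MYBL2 (chromosome 20, 43667114 to 43716482) was the only member whose peak lay just before its start. Its summit at 43666881 was 233 bp outside the gene with a −log10 q of 2.02, and the peak ended 160 bp before the start. FOXM1 (chromosome 12, 2857680 to 2877174) had its summit 377 bp inside an end, with a −log10 q of 2.69. RHNO1, whose interval overlaps that end of FOXM1, has its own end 532 bp from the summit.

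E2F1 (chromosome 20, 33675477 to 33686385) differed from the others, since its summit at 33674321 lay 1156 bp beyond the finish of the gene and 12.06 kb from its annotated start. That summit was inside NECAB3, 1027 bp from an end of that gene, and its peak touched the NECAB3 window printed above. The 40 bases that the peak shares with the window lie among the 50 after an annotated NECAB3 start. The peak thus stood at a promoter of NECAB3. The −log10 q was 3.14. In CASM34 2 the nearest summits were 677 kb from E2F1, 200 kb from FOXM1 and 805 kb from MYBL2. The libraries numbered 1 came no nearer than 137 kb to any of the 3 genes, the value for FOXM1 in CASM34 1.

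Among the replication genes MCM4 alone was called. MCM4 encodes a subunit of the replicative helicase, and its summit in p53WT 2 lay at 47961068 on chromosome 8, 127 bp inside the gene end. With a −log10 q of 3.62 it was the second strongest peak at a member. The end of PRKDC, which encodes a DNA repair kinase, lay 932 bp from this summit. MCM7, another helicase subunit, was the first member outside the 2 kb limit in p53WT 2, at 3.72 kb, while E2F1 at 1.16 kb was the last inside it. CDC6, CDC45, MCM2, MCM3, MCM5 and MCM6 had no peak, and their nearest summits in p53WT 2 were from 77.5 kb (MCM3) to 2972.5 kb (MCM5) away. In CASM34 2 the nearest summit to MCM4 was 30.4 kb away.

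MKI67 held the strongest peak at any member. The gene encodes Ki-67, a coat protein of mitotic chromosomes used as a marker of dividing cells. Its peak in p53WT 2 ran from 128126008 to 128126229 on chromosome 10, with the summit 316 bp after the start, a −log10 q of 4.73 and a fold of 5.98 over background. It ranked above 71.2% of the rows in its list. The other 3 libraries had their nearest summit 338 kb away. TOP2A, topoisomerase II alpha, and UHRF1, which helps to copy DNA methylation, had no peak.

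ECT2 and BIRC5 held the weakest peaks of their libraries among the members. ECT2 activates the GTPase RhoA for cytokinesis, and its summit in p53WT 2 was at 172750891 on chromosome 3, 165 bp inside the gene and 111 bp before the inner start whose window is printed above. The −log10 q was 1.34, above only 1.3% of the list. BIRC5, or survivin, a subunit of the chromosomal passenger complex, was the only member called in CASM34 2 and not in p53WT 2. Its summit at 78214399 on chromosome 17 was 146 bp inside the gene, with a −log10 q of 1.47, above 3.6% of the list, and the nearest p53WT 2 summit was 139 kb away. KIF23, a motor of the central spindle, was the first member outside the limit in CASM34 2, at 4.54 kb.

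No peak was called at any of the 8 mitotic kinases and spindle checkpoint genes or the 4 DNA repair and damage kinase genes, against backgrounds of 10.2% in p53WT 2 and 6.95% in CASM34 2. AURKA, the Aurora A kinase of spindle poles, came nearest of the mitotic kinase genes in CASM34 2, at 10.3 kb, and PLK1, Polo-like kinase 1, nearest in p53WT 2, at 22.8 kb. RAD54L, a recombination helicase, was 5.86 kb from a summit in p53WT 1 and 6.33 kb in p53WT 2, and was the nearest member of p53WT 1. BRCA1, a recombination scaffold, was 76.3 kb from the nearest summit in p53WT 1, p53WT 2 and CASM34 1 and 63.5 kb in CASM34 2. CHEK1, the S phase checkpoint kinase, was 55.5 kb from the nearest summit in both libraries numbered 2. CENPA, CENPE and CENPF of the centromere and KIF11, KIF20A, KIF2C and PRC1 of the spindle had no peak either.

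**Figure D1:**
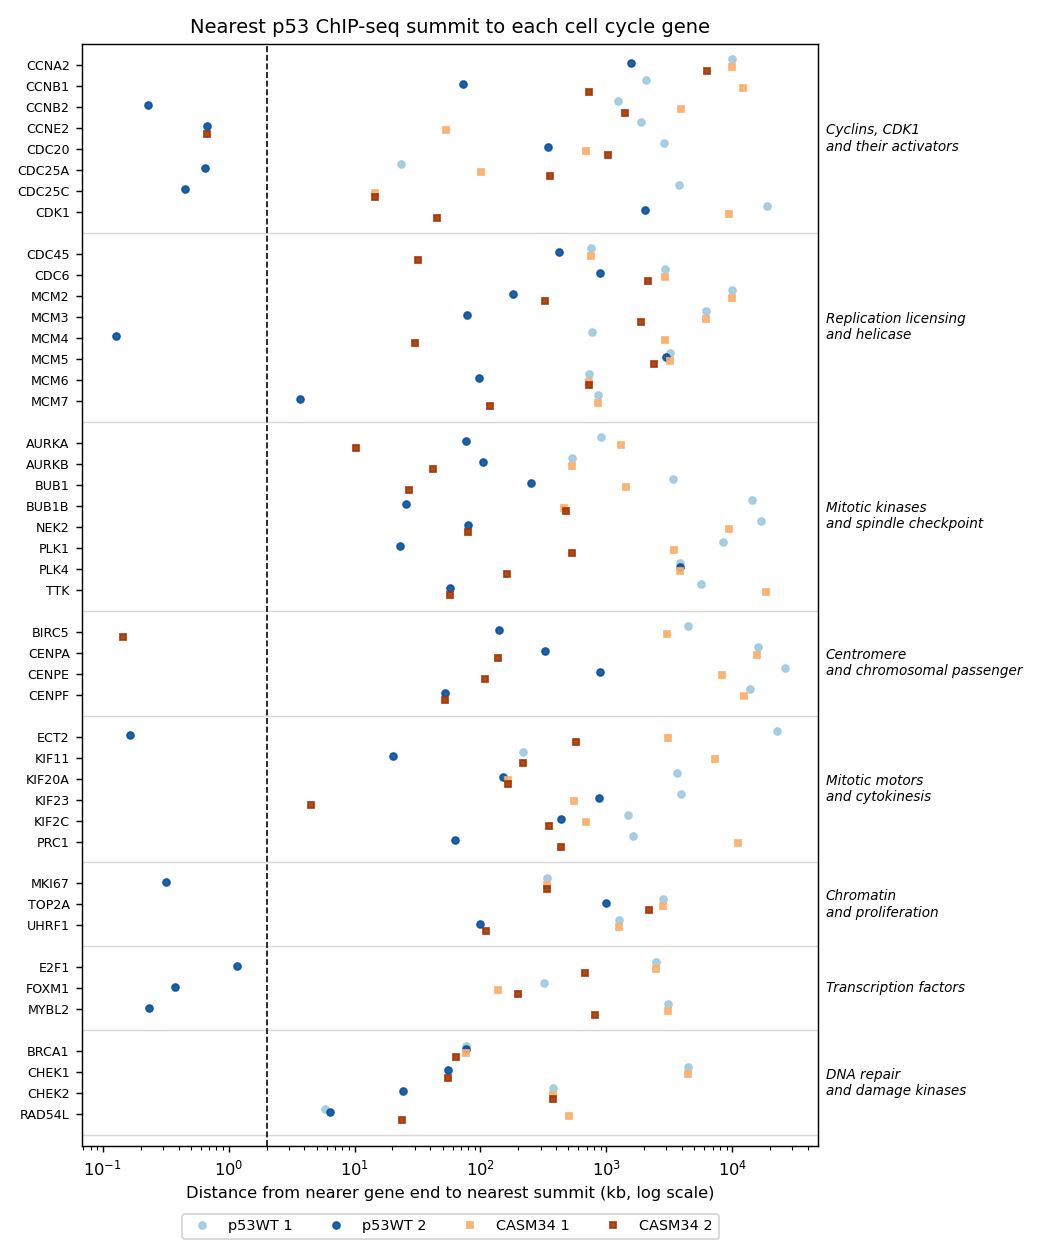
Distance in kb, on a log axis, from the nearer end of each of the 44 members to the nearest summit in each library (circles p53WT, squares CASM34; points of a gene are shifted vertically so that none is hidden), with the 2 kb limit dashed. In p53WT 2 there are 10 points left of the limit, in CASM34 2 there are 2, and in the libraries numbered 1 there are 0.

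Distances showed the same split by library number. The median distance from a member to the nearest summit was 2910.3 kb in p53WT 1 and 2879.0 kb in CASM34 1, against 2881.4 and 2212.0 kb for other genes. It was 76.2 kb in p53WT 2 and 182 kb in CASM34 2, against 175 and 330 kb for other genes. Within 50 kb of a summit were 16 members (36.4%) in p53WT 2, where 26.7% of other genes were, and 11 (25%) in CASM34 2, where 18.4% were. In p53WT 1 and CASM34 1 the counts were 2 (4.55%, background 2.54%) and 1 (2.27%, background 3.33%).

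The difference between the group means was below the SD of the p53WT libraries and above that of the CASM34 libraries. The mean number of members with a peak was 5 ± 7.07 (SD, n = 2) for p53WT and 1 ± 1.41 (SD, n = 2) for CASM34. The difference was 4 (exact two-sided permutation p = 1), where 2 libraries against 2 cannot give less than 0.333. With no member called in either library numbered 1, this p is the same whatever the libraries numbered 2 hold. The test therefore cannot compare the groups. Within number 1 the difference was 0 and within number 2 it was 8. Without p53WT 2 it turned to -1. No member was called in both libraries of 1 group and neither of the other, in either direction, whereas 0.07% (p53WT) and 0.075% (CASM34) of other genes were. With no member called in a library numbered 1, this rule could not pick any.

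Between the libraries numbered 2, 9 members (20.5%) were called in p53WT 2 and not in CASM34 2, as were 7.15% of other genes. The 1 member called in CASM34 2 and not in p53WT 2 (2.27%) stands beside 3.89% of other genes. CCNE2, called in both (2.27%, background 3.06%), is 10% of the p53WT 2 calls and 50% of the CASM34 2 calls among members. For other genes the shared calls were 30% and 44.1%. The list of p53WT 2 is also the longer, with 5658 rows against 3838, and depth is unknown, so a gene missing from CASM34 2 is a gene not listed and is not shown to lack p53.

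**Figure D2:**
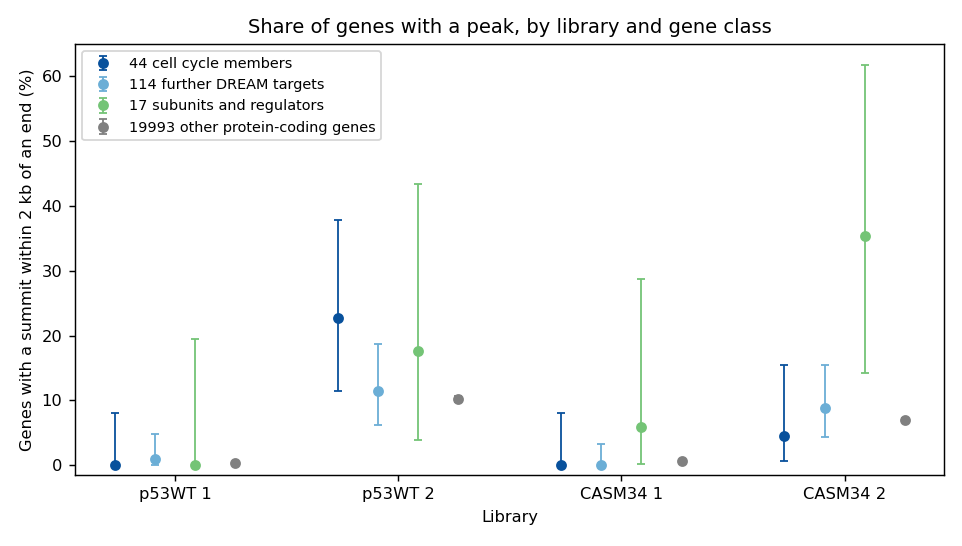
Percent of genes with a summit within 2 kb of an end, by library, for the 44 members, 114 further DREAM targets, 17 subunits and regulators of DREAM, and the 19993 other protein-coding genes, which include both other lists; bars are exact 95% binomial intervals for counting error over genes. The members are at 22.7% in p53WT 2 and 4.55% in CASM34 2, where the other genes are at 10.2% and 6.95%.

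The excess of members over the background in p53WT 2 rested mostly on weak peaks. Every list was cut to its 1776 strongest rows on chromosomes 1 to 22, X and Y, the number that p53WT 1 has there. Of the members p53WT 2 then kept 1, MKI67 (2.27%, background 2.13%), and CASM34 2 kept 0 (background 2.29%). At a −log10 q of at least 3, p53WT 2 kept E2F1, MCM4 and MKI67 (6.82%, background 3.94%) and CASM34 2 kept 0 (background 3.43%). At 5 or more no member remained in any library, where the backgrounds were 0.925% in p53WT 2, 0.845% in CASM34 2 and 0.115% in each library numbered 1. When a summit was counted only for the gene with the nearest end, p53WT 2 had 7 members (15.9%, background 8.99%) and CASM34 2 had BIRC5 alone (2.27%, background 5.92%). CCNE2, CDC25C and E2F1 were the members lost by that count. At annotated starts alone, p53WT 2 had 6 of the 37 members with an entry (16.2%, background 10.7%) and CASM34 2 had 0 (background 6.96%).

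The peaks at members lay within the range of strength of other gene-end peaks. Their median −log10 q in p53WT 2 was 2.35, from 1.34 to 4.73, against a median of 2.75 for 1931 peaks at the ends of other genes. Their median fold was 4.34 against 4.53, and their median width 240 bp against 242 bp. A −log10 q of at least 3 was reached by 3 of 10 (30%) and by 37.8% of the other gene-end peaks. In CASM34 2 the values at members were 2.55 (CCNE2) and 1.47 (BIRC5), and the median of 1257 other gene-end peaks was 2.91.

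**Figure D3:**
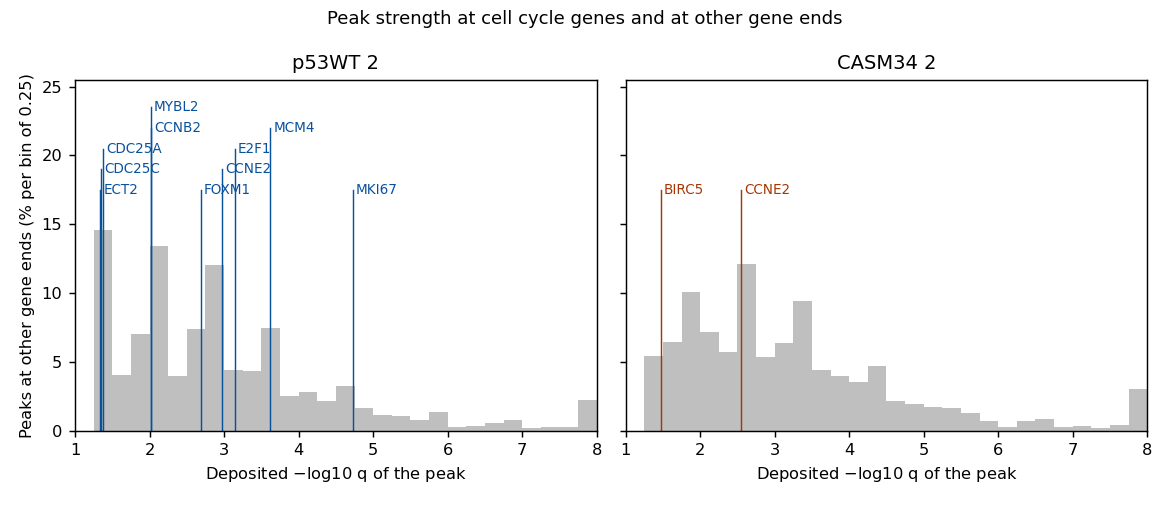
Deposited −log10 q of peaks within 2 kb of the ends of other genes (grey bars, percent of those peaks per bin of 0.25, the last bin holding all larger values) with the peaks at members drawn as labelled lines of arbitrary height, for p53WT 2 and CASM34 2. The members lie from 1.34 to 4.73 in p53WT 2 and at 1.47 and 2.55 in CASM34 2, within the bulk of the grey bars.

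Most of these summits lay a short way inside the gene. Of the 12 peaks at members, 10 had the summit inside the gene and at most 700 bp from its end, and MYBL2 and E2F1 were the exceptions. Counted for the nearest gene, member or not, the summit was inside for 9 of 10 of these peaks (90%) in p53WT 2 and 2 of 2 in CASM34 2. For other gene-end peaks the shares inside the nearest gene were 82.4% in p53WT 2 and 83.4% in CASM34 2. The 700 bp limit was not counted for those other peaks. Another protein-coding gene had an end within 2 kb of the summit for 6 of the 12 peaks, and for 4 of them, the 2 at CCNE2 and those at CDC25C and E2F1, that end was nearer than the member's own. In p53WT 2 this was 5 of 10 peaks (50%), against 13.7% of peaks at other gene ends that met at least 2 genes. Members were not unusual in having such neighbours: 17 of 44 (38.6%) had another gene's end within 2 kb of their own, as did 36.3% of other genes. In p53WT 2, 5 of the 17 members with a neighbour (29.4%, background 10.5%) and 5 of the 27 without (18.5%, background 10%) had a peak.

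**Figure D4:**
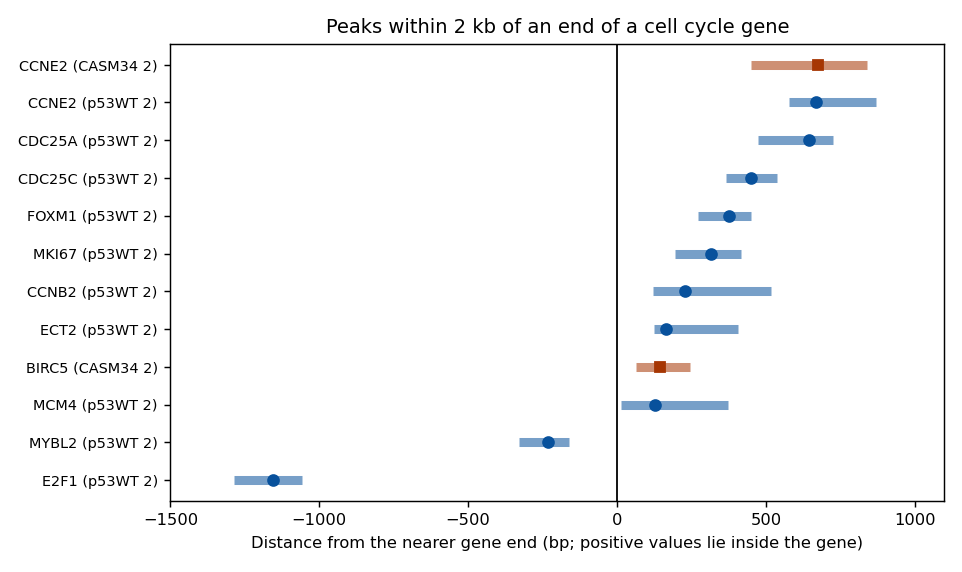
Position of the 12 peaks within 2 kb of an end of a member, in bp from the nearer gene end with values inside the gene positive; the bar is the called peak, the point its summit, blue circles p53WT 2 and brown squares CASM34 2. The summits lie from 127 to 675 bp inside the gene for 10 peaks, and 233 bp (MYBL2) and 1156 bp (E2F1) outside it for the others.

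The rest of the pathway was read from lists of 114 further DREAM target genes and 17 subunits and regulators. Of the further targets 13 (11.4%) had a peak in p53WT 2, near the background of 10.2%, and 10 (8.77%) in CASM34 2, where the background was 6.95%. In p53WT 1 there was 1 (0.877%, background 0.375%) and in CASM34 1 there were 0 (background 0.56%). Called in both libraries numbered 2 were FBXO5, an inhibitor of the anaphase-promoting complex also known as EMI1, and NUSAP1, a spindle protein. FBXO5 was called in 3 libraries, with summits at 152982873 in p53WT 1, 152982902 in p53WT 2 and both 152982290 and 152982791 in CASM34 2 on chromosome 6. Their −log10 q was 3.10, 2.57, 3.59 and 2.70. Among other protein-coding genes 0.35% were called in at least 3 libraries, and no member was. The NUSAP1 summits were 1500 and 1520 bp beyond the finish of the gene, so they lay at its far end from the promoter.

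The subunits and regulators of DREAM, a list that includes the p21 gene and cyclin-dependent kinases outside the complex, had 3 of 17 called in p53WT 2 (17.6%, background 10.2%) and 6 of 17 in CASM34 2 (35.3%, background 6.95%). E2F5, a repressor E2F that can take the place of E2F4, was called in p53WT 2, CASM34 1 and CASM34 2, with a −log10 q of 5.77, 3.27 and 3.06. RBBP4, a MuvB subunit, was called in p53WT 2 and CASM34 2, with values of 2.82 and 6.67. RBL2, the pocket protein p130, was called in p53WT 2 alone, at 4.73 and 155 bp inside the gene. Called within 2 kb in CASM34 2 alone were LIN9, another MuvB subunit, at 2.34, TFDP2, an E2F partner, at 4.67, CDK2, a kinase that p21 inhibits, at 1.5, and CDKN1A at 10.7. CDKN1A also had a p53WT 2 summit at 36678890 on chromosome 6, inside the gene and 2427 bp from its end, with a −log10 q of 3.39. It missed the call there by the 2 kb limit. The CASM34 2 summit was at another position, 36676300, which is 2590 bp from the p53WT 2 summit. It lay 163 bp outside the gene and 2414 bp from the nearest annotated start. In p53WT 1 and CASM34 1 the summits nearest to CDKN1A were 6682121 and 10519647 bp away. DYRK1A, the kinase that promotes DREAM assembly, had one 2327 bp inside its end in p53WT 2, with a −log10 q of 1.35. The CDK2 summit was 1586 bp outside the gene and 426 bp from an end of RAB5B. These differences between the lists rest on 1 library each and were not tested.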

How the data were processed

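The 4 deposited peak lists, 1 per library, were read as the authors left them. Per the submitters' processing notes, Trim Galore, Bowtie2, bedtools and GRCh38 were used; how peaks were called, against which control and at which threshold is not given in the sources used here. For each peak the authors' caller gave a fold (a ratio of signal over background), a −log10 p, a −log10 q and a score that follows the −log10 q. These deposited values were used only within a list. The lists hold 2054, 5658, 2198 and 3838 rows (p53WT 1, p53WT 2, CASM34 1, CASM34 2), with a lowest −log10 q of 1.31, 1.31, 1.31 and 1.3. They hold no read counts, so depth is unknown, and no expression, so the labels could not be checked.

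A gene was called when the summit (start plus summit offset) of any row on chromosomes 1 to 22, X and Y lay within 2 kb of either gene end in the RefSeq table (GRCh38.p14). Exons, introns and peaks on other sequences were not analysed here. Starts and strand came from the RefSeq promoter table, which has entries for 37 members, and that table supplied the printed sequences; exact letters were searched on both strands. Every member with a peak is named with its values, and the others are named by role. The members and lists were chosen with earlier results of these data known. An exact two-sided permutation test over libraries compared the group counts, and shares of genes are given beside the background with no list test. Intervals cover counting error over genes only. Alternatives changed the distance, the part of the peak or gene, the threshold, the list length, repeated rows and the libraries. Python 3.11.15, numpy 2.4.6, pandas 2.3.3 and scipy 1.17.1 were used.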

Additional observations from a re-analysis of the deposited data

How the results depend on the processing

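The difference of 4 members kept its sign under every alternative in distance, peak part, gene part, nearest end, list length and repeated rows, from 0.5 to 5. It was 1.5 at a −log10 q of at least 3. It was 0 at a −log10 q of at least 5, where no member was called. Leaving out 1 library gave -1 to 9; it turned to -1 without p53WT 2, and one library then stands for its group. Members called in both p53WT libraries and neither CASM34 library were then 0 to 9, and the reverse 0 to 1. With the replicate number as a block the difference was 4 (exact sign-flip permutation p = 1, smallest possible 0.5). The difference within number 1 was 0, so this p too was fixed in advance and compares nothing. The labels do not say what a number shares, and the deviations of same-numbered libraries over 20037 genes correlated at 0.258.

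Counts are given below in the order members, other DREAM-linked genes (131 in all, 16 called in each library numbered 2 and 1 in each numbered 1) and other protein-coding genes, where they moved by over 1.5 times. At a −log10 q of at least 3, p53WT 2 had 3, 8 and 788, CASM34 2 had 0 members and 685 other genes, and p53WT 1 and CASM34 1 had 40 and 51 other genes. At 5 or more, p53WT 2 had 0, 1 and 185, CASM34 2 had 0, 6 and 169, p53WT 1 had 0 DREAM-linked and 23 other genes, and CASM34 1 had 0 and 23. With lists of equal length p53WT 2 had 1, 4 and 425, and CASM34 2 had 0, 10 and 458. Annotated starts covered only 37 members, 108 DREAM-linked and 15806 other genes. By these alone p53WT 2 had 6 members (16.2%, background 10.7%), and CASM34 2 had 0 members (background 6.96%) and 10 DREAM-linked genes. CASM34 1 then had 0 DREAM-linked genes and p53WT 1 had 36 other genes. By the nearest end alone CASM34 2 had 1 member. Within 5 kb p53WT 1 had 128 other genes. Within 10 kb p53WT 1 had 1 member (RAD54L), 2 DREAM-linked and 193 other genes, CASM34 1 had 229 other genes, and 1 member was called in both p53WT libraries alone. With gene bodies included p53WT 1 had 190 and CASM34 1 had 256 other genes. Fewer peaks or fewer genes enter these counts by construction, except where the window is wider.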
